A study of Mus musculus with 11 samples.

Results

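The 9 genes described here encode enzymes of threonine, serine and one-carbon metabolism. They were taken by name as Tdh, Gldc, Phgdh, Psat1, Shmt1, Shmt2, Mthfd2, Aldh1l1 and Bcat1. The rule itself used no measured value, but the list was drawn up with earlier results of these data known. The counts of members below are therefore not those of a set chosen blind. All 9 were found among the 48952 genes of the bulk count table and among the 32285 genes of each single-cell matrix. The study concerned naive extra-embryonic endoderm (nEnd), a mouse culture that models the primitive endoderm, the blastocyst lineage that forms the yolk sac endoderm and is marked by the receptor PDGFRA. For bulk RNA-seq, nEnd cells carrying an mCherry-tagged OCT4 protein reporter (OCT4, encoded by Pou5f1, is a pluripotency factor) were stained for PDGFRA and sorted by flow cytometry into 3 groups of 3 libraries. These groups were Pdgfra+ cells (PDGFRA only), DP cells (double positive for PDGFRA and the reporter) and Oct4+ cells (reporter only), all cultured in RACL medium (an RPMI base with Activin A, the GSK3 inhibitor CHIR99021 and LIF) and given no further treatment. For single-cell RNA-seq, PDGFRA-sorted nEnd cells of the line Oct4LOF, in which both Oct4 alleles can be deleted by adding 4-hydroxytamoxifen (4OHT), were cultured without 4OHT (-4OHT) or with it (+4OHT), with 1 library each. The cells grew on mouse fibroblast feeders, and the study describes the libraries of a sorted group as biological replicates, while the labels do not say whether they came from separate cultures. The p-values measure the spread between these libraries.

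TDH starts the breakdown of threonine in mitochondria, and GCAT then splits its product into glycine and acetyl-CoA, a route on which mouse embryonic stem cells are known to depend. PHGDH and PSAT1 catalyse the opening steps of serine synthesis, SHMT1 in the cytosol and SHMT2 in mitochondria convert serine and glycine into each other and load a one-carbon unit onto folate, and GLDC, the decarboxylase of the glycine cleavage system, releases such a unit from glycine. MTHFD2 oxidises the loaded folate in mitochondria, ALDH1L1 removes one-carbon units in the cytosol by oxidising them to carbon dioxide, and BCAT1 is the cytosolic transaminase of leucine, isoleucine and valine.

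On the mouse genome build GRCm38 (GENCODE vM21), all 9 are protein-coding genes. Tdh (ENSMUSG00000021953.14) lies on the minus strand of chromosome 14 at 63492347 to 63509092, and Shmt2 (ENSMUSG00000025403.5) on the minus strand of chromosome 10 at 127517123 to 127522444. Chromosome 6 carries Mthfd2 (ENSMUSG00000005667.8, minus strand, 83305691 to 83325908), Aldh1l1 (ENSMUSG00000030088.15, plus strand, 90486427 to 90600203) and Bcat1 (ENSMUSG00000030268.17, minus strand, 144993835 to 145076184). Chromosome 19 carries Psat1 (ENSMUSG00000024640.9, minus strand, 15904678 to 15947337) and Gldc (ENSMUSG00000024827.10, minus strand, 30098447 to 30175429). Phgdh (ENSMUSG00000053398.11) lies on the minus strand of chromosome 3 at 98313170 to 98339990, and Shmt1 (ENSMUSG00000020534.14) on the minus strand of chromosome 11 at 60788104 to 60811718. Shmt1 and Shmt2 overlap protein-coding genes of the opposite strand, Smcr8 and Ndufa4l2, and Tdh, Aldh1l1 and Bcat1 overlap antisense transcripts. Whether the bulk counting used strand is not given in the sources used here, so reads in these overlaps cannot be assigned with certainty. Phgdh has a processed copy, Phgdh-ps1, with a row of its own, and its counts are likewise uncertain.

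The RefSeq promoter table (GRCm38.p6) held windows for 8 of the 9 genes, 10 windows in all, and none for Tdh. The 250 bases upstream of the annotated start are shown for 4 members. These are Shmt2 and Mthfd2, which act in turn in mitochondria, Aldh1l1, which was lower in Oct4+ than in DP cells, and Bcat1, whose level spanned the widest range. Capitals mark CpG dinucleotides. For Bcat1, which had more than 1 annotated start, the window at the gene's 5′ end is printed.
Shmt2 (GRCm38.p6, chr10:127522445-127522694, minus strand): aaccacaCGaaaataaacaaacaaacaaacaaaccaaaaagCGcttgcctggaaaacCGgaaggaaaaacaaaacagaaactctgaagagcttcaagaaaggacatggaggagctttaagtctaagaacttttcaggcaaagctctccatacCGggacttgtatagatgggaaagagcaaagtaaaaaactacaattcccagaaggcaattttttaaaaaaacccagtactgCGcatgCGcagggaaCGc
Mthfd2 (GRCm38.p6, chr6:83317605-83317854, minus strand): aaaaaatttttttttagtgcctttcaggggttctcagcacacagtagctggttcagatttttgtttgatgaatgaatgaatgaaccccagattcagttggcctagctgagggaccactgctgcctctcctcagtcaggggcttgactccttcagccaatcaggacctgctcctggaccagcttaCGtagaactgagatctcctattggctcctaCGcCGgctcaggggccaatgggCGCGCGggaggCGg
Aldh1l1 (GRCm38.p6, chr6:90550543-90550792, plus strand): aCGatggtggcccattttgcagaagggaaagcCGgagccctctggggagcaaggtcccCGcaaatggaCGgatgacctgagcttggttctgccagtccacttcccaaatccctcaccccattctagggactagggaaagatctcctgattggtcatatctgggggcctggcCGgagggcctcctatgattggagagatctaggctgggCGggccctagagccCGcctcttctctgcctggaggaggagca
Bcat1 (GRCm38.p6, chr6:145076158-145076407, minus strand): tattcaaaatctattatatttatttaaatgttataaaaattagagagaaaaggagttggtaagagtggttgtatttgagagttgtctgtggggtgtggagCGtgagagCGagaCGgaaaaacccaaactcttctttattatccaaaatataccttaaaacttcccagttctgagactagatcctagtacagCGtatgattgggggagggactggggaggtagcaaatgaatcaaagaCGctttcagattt
The Aldh1l1 window had a GC content of 59.6% with 7 CpG, and the Mthfd2 window 52.4% with 7 CpG. Shmt2 had 40.8% with 7 CpG, and Bcat1 had 37.6% with 5 CpG. Across all 32851 promoter windows the median was 52.4% GC with 6 CpG, and the middle of the distribution ran from 45.2% to 61.2% GC and from 2 to 16 CpG. The promoter windows, 300 bases from 250 before to 50 after the start, were searched on both strands for TGATGNAA (a C/EBP-ATF response element of the amino acid response, found in 3.97% of all windows), ATGCAAAT (the octamer bound by OCT4, 1.74%) and the E-box CACGTG (7.15%). None of the members' 10 windows held any of these letters, and the CpG counts were added after that search. The Aldh1l1 and Mthfd2 windows lie inside the gene spans given above, because RefSeq places their start downstream of the outermost GENCODE start.

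The sorted libraries held 8019631 to 11642571 counted reads each, and levels are given in CPM (reads of a gene scaled to a common library size, with the trimmed mean of M-values, TMM). The sort was visible in its own genes: Pou5f1 ranged from 8.37 to 26.4 CPM in Pdgfra+, 132 to 310.3 in DP and 861 to 1137 in Oct4+ libraries, and Pdgfra from 420.1 to 967 CPM in the Pdgfra+ and DP groups and from 4.96 to 12.1 in Oct4+. The summed level of 10 endoderm markers was 33953 to 44606 CPM in Pdgfra+, 25954 to 35111 in DP and 179 to 461 in Oct4+ libraries. Col4a1 (means 24426 and 15238 CPM) and Lama1 (11673 and 8343) made up most of the Pdgfra+ and DP sums. The 10 epiblast markers summed to 134 to 231, 594 to 914 and 3248 to 4488 CPM in the same order, with Gdf3 at 0 in Pdgfra+ replicate 3 and no other epiblast marker at 0. Fibroblast markers summed to 50.9 to 143, 18.3 to 62.5 and 17.6 to 166 CPM, with Dcn, Lum, Postn or Prrx1 at 0 in most libraries. Fbn1 made up most of the Pdgfra+ and DP sums (means 81.5 and 38.7 CPM) and was lower in Oct4+ (8.35). The sum of 166 CPM was that of Oct4+ replicate 1, with Col1a1 at 68.3, Col1a2 at 37.0 and Col3a1 at 17.7 CPM. Oct4+ replicates 2 and 3 summed to 30.7 and 17.6 CPM. Different genes led these sums, so they do not compare fibroblast content between the groups. The 6 markers of the two-cell-like state summed to 239 to 820 CPM in Oct4+ against 1.04 to 2.19 in Pdgfra+ and 4.49 to 15.8 in DP. In such sorted bulk samples, fewer cells of a type and less RNA per cell cannot be told apart. A gene was called when edgeR's quasi-likelihood test over 14185 genes gave an adjusted p (Benjamini-Hochberg) below 0.05 with a log2 fold change above 1.5 in size.

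Tdh, which opens the threonine route, was highest in Oct4+ cells. Tdh stood at 31.0, 55.4 and 39.9 CPM in the Pdgfra+ libraries, at 75.05, 149.8 and 104.8 in DP and at 589.8, 576 and 195 in Oct4+. The 3 groups did not overlap, although Oct4+ replicate 3 lay nearer to the highest DP library than to the other two Oct4+ libraries. The mean was 454 ± 224 CPM in Oct4+, 109.9 ± 37.6 in DP and 42.1 ± 12.3 in Pdgfra+ (SD, n = 3). Tdh rose 10.8-fold from Pdgfra+ to Oct4+ (log2 fold change 3.43, SE 0.44, edgeR adjusted p 0.000103) and 4.13-fold from DP to Oct4+ (2.05, SE 0.41, 0.00206). DP against Pdgfra+ gave 1.38 (SE 0.41, edgeR adjusted p 0.0721), which did not pass the test although all 3 DP libraries lay above all 3 Pdgfra+ libraries. Paired by replicate number in these 6 libraries, it was 1.39 with an edgeR adjusted p of 0.0184, still under the fold minimum. Its adjusted p in that comparison ran from 0.000536 to 0.240 over 16 other settings, and its log2 fold change from 1.09 to 1.63. Gcat, the enzyme that follows TDH, had mean levels of 41.1 CPM in Pdgfra+, 79.8 in DP and 75.5 in Oct4+, and no comparison passed the threshold (log2 fold change 0.88, edgeR adjusted p 0.0235, for Oct4+ against Pdgfra+).

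Gldc passed the test in no comparison. Its levels were 153, 247 and 178 CPM in Pdgfra+, 172, 449 and 172 in DP and 262, 171 and 115 in Oct4+, with the groups overlapping and DP replicate 2 above all other libraries. The log2 fold changes were 0.46 (SE 0.41) for DP against Pdgfra+, -0.53 for Oct4+ against DP and -0.08 for Oct4+ against Pdgfra+ (edgeR adjusted p 0.513, 0.287 and 0.880), and without DP replicate 2 the first of these was -0.17 and the second 0.0724. The other 3 proteins of the glycine cleavage system are encoded by Amt, Gcsh and Dld. Amt, the aminomethyltransferase, rose from 8.22 CPM in Pdgfra+ and 19.6 in DP to 88.5 in Oct4+ (log2 fold change 3.43, SE 0.30, adjusted p 1.17e-05 against Pdgfra+, and 2.17, SE 0.29, 0.000156 against DP). Gcsh (116, 195 and 134 CPM) and Dld (94.0, 103 and 86.5 CPM) passed the threshold in no comparison.

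In serine synthesis, Psat1 rose while Phgdh, the step before it, did not pass the test. Psat1 stood at 43.2, 60.5 and 44.7 CPM in Pdgfra+, at 51.4, 56.2 and 49.0 in DP and at 193, 144 and 180.4 in Oct4+. The Pdgfra+ and DP ranges overlapped, and each Oct4+ library was above all 6 others. The rise was 3.30-fold over DP (log2 fold change 1.72, SE 0.17, edgeR adjusted p 2.95e-05) and 3.49-fold over Pdgfra+ (1.80, SE 0.17, 1.69e-05), and DP against Pdgfra+ gave 0.08 (SE 0.17, 0.807). Phgdh stood at 58.6, 92.2 and 84.5 CPM in Pdgfra+, at 52.9, 75.3 and 59.7 in DP and at 55.3, 64.8 and 97.5 in Oct4+. These ranges overlapped in every pair of groups, with log2 fold changes of -0.33, 0.21 and -0.12 and edgeR adjusted p of 0.435, 0.489 and 0.698 (DP against Pdgfra+, Oct4+ against DP, Oct4+ against Pdgfra+). Psph, the phosphatase that completes the pathway, had means of 32.6, 21.0 and 30.1 CPM in Pdgfra+, DP and Oct4+ and was called nowhere.

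Both serine hydroxymethyltransferases had their highest levels in Oct4+ cells, without passing the fold minimum. Shmt1 stood at 75.4, 114 and 70.1 CPM in Pdgfra+, at 92.0, 88.6 and 103 in DP and at 193, 183 and 186 in Oct4+. Shmt2 stood at 66.8, 86.7 and 67.3 CPM in Pdgfra+, at 71.4, 119 and 80.6 in DP and at 256, 166 and 161 in Oct4+. For both genes the Oct4+ libraries lay above the 6 others, and the other two groups overlapped. Against DP the log2 fold change was 0.98 for Shmt1 (SE 0.18, edgeR adjusted p 0.00110) and 1.11 for Shmt2 (SE 0.24, 0.00289), and against Pdgfra+ it was 1.11 (SE 0.18, 0.000414) and 1.40 (SE 0.24, 0.000598). These 4 differences had an adjusted p under 0.05 and a fold under the minimum, so they were not called. Shmt2 against Pdgfra+ passed the fold minimum without Pdgfra+ replicate 2 (1.51), Oct4+ replicate 2 (1.502) or Oct4+ replicate 3 (1.52).

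Mthfd2, which takes the mitochondrial one-carbon unit from SHMT2, was lowest in DP. It stood at 38.9, 54.5 and 43.6 CPM in Pdgfra+, at 31.8, 31.7 and 27.4 in DP and at 87.8, 79.9 and 93.5 in Oct4+, and the 3 groups did not overlap. It rose 2.87-fold from DP to Oct4+ (log2 fold change 1.52, SE 0.16, edgeR adjusted p 4.08e-05). This value sits just above the minimum, and it fell under it with the replicate number as a block on the 6 libraries (1.4997, adjusted p 0.000972), with no filter on low counts (1.48), and without Pdgfra+ replicate 2 (1.49), Pdgfra+ replicate 3 (1.49), DP replicate 3 (1.42) or Oct4+ replicate 3 (1.46). Against Pdgfra+ the log2 fold change was 0.93 (SE 0.16, 0.000533), and DP against Pdgfra+ gave -0.59 (SE 0.16, edgeR adjusted p 0.0528), or -0.57 with an adjusted p of 0.0371 when these 6 libraries were paired by replicate number, under the fold minimum in both. Mthfd2l, its paralog, rose in Oct4+ from a lower level (0.948, 0.819 and 8.98 CPM in Pdgfra+, DP and Oct4+, log2 fold change 3.43, SE 0.48, adjusted p 0.000223 against DP and 3.24, SE 0.46, 0.000203 against Pdgfra+). Mthfd1, the cytosolic enzyme of the same steps, had means of 172, 219 and 459 CPM, with 1.07 (adjusted p 0.00250) against DP and 1.42 (0.000390) against Pdgfra+, both under the fold minimum. Mthfd1l, which releases formate from mitochondria, had means of 106, 118 and 120 CPM and was called in no comparison.

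Aldh1l1 was highest in DP and lowest in Oct4+, and no other member was called lower in any comparison. It stood at 37.2, 39.9 and 47.3 CPM in Pdgfra+, at 81.4, 160.0 and 142 in DP and at 20.5, 22.4 and 24.9 in Oct4+, with no overlap between any groups. It rose 3.08-fold from Pdgfra+ to DP (log2 fold change 1.62, SE 0.23, edgeR adjusted p 0.0110) and was 5.65-fold lower in Oct4+ than in DP (-2.50, SE 0.24, 2.59e-05). Without DP replicate 2 the rise in DP fell under the fold minimum (1.42, adjusted p 0.0356). Oct4+ against Pdgfra+ gave -0.88 (SE 0.23, 0.00791), under the minimum. Its mitochondrial paralog Aldh1l2 had means of 1.20, 2.39 and 2.00 CPM in Pdgfra+, DP and Oct4+ and was called in no comparison. Folr1, a folate receptor at the cell surface, was also highest in DP, with means of 74.5, 245 and 59.7 CPM. It rose in DP (1.72, SE 0.35, edgeR adjusted p 0.0238) and fell in Oct4+ relative to DP (-2.04, SE 0.35, 0.000808). Its Oct4+ and Pdgfra+ libraries overlapped (-0.32, SE 0.34, 0.431).

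Bcat1 covered the widest range of the 9. It stood at 38.7, 8.77 and 17.01 CPM in Pdgfra+, at 104.6, 173 and 199.7 in DP and at 604, 351 and 624 in Oct4+. The 3 groups did not overlap, and Pdgfra+ replicate 1 stood above the other two Pdgfra+ libraries. It rose 7.44-fold from Pdgfra+ to DP (log2 fold change 2.90, SE 0.49, edgeR adjusted p 0.0171), 3.31-fold from DP to Oct4+ (1.73, SE 0.46, 0.00883) and 24.6-fold from Pdgfra+ to Oct4+ (4.62, SE 0.52, 4.56e-05). The first of these calls was lost without Pdgfra+ replicate 3 (2.76, adjusted p 0.0697) or DP replicate 3 (2.70, 0.0513), and the second fell under the fold minimum without DP replicate 1 (1.46, adjusted p 0.0382). Without Pdgfra+ replicate 1, the highest of its group, the log2 fold change against Pdgfra+ was 3.63 in DP and 5.37 in Oct4+. All 10 epiblast markers were called higher in DP than in Pdgfra+ as well, with the summed levels given above, and their part in the DP values of Bcat1 and Tdh was not tested. Of the 10 endoderm markers, 2 were called higher in DP than in Pdgfra+ and 0 lower. These 2 were Cubn (log2 fold change 1.91, SE 0.49) and Amn (2.02, SE 0.43). Bcat2, the mitochondrial transaminase, had means of 79.98, 87.8 and 129 CPM and was called in no comparison.

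**Figure D1:**
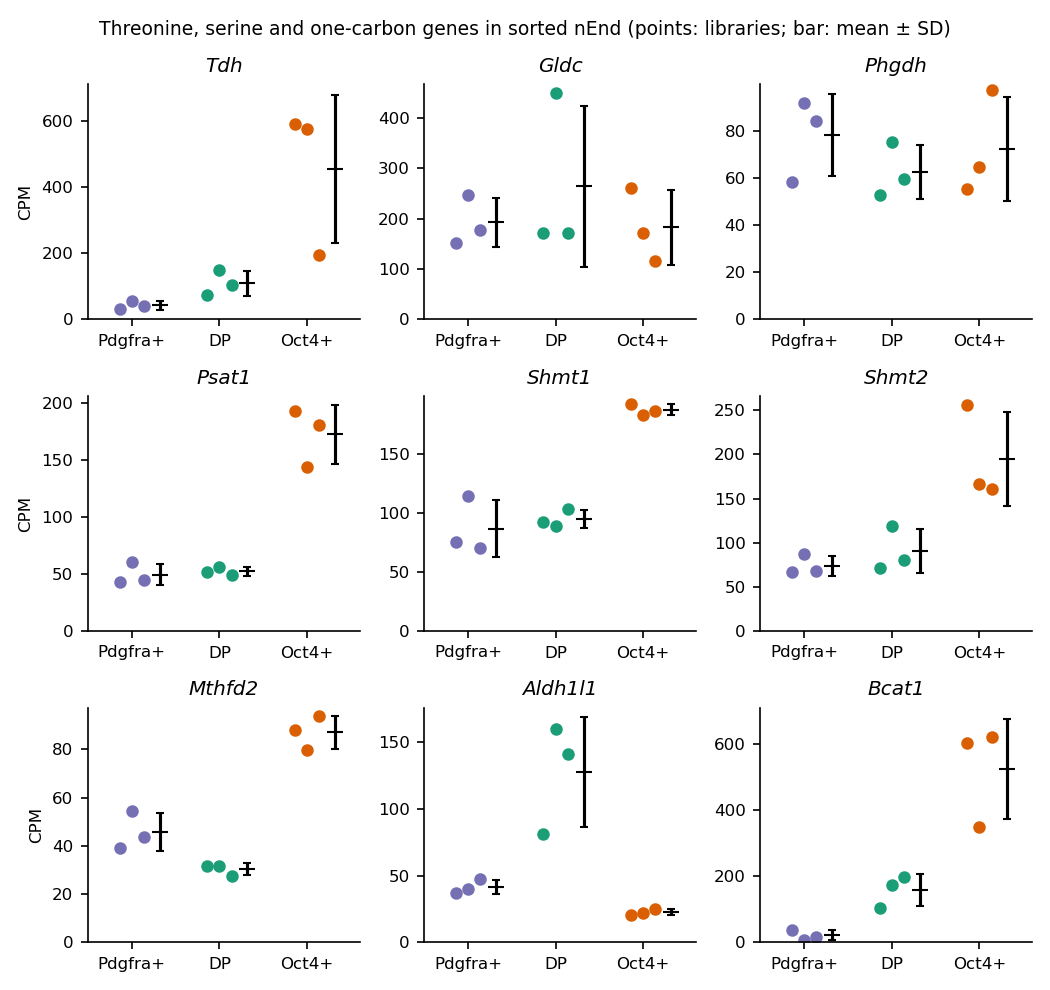
Level of each of the 9 genes in every sorted bulk library. Each panel is a gene, points are single libraries of the Pdgfra+, DP and Oct4+ groups (n = 3 each), black bars are the mean ± SD, and the vertical axis is TMM-scaled CPM. Bcat1 runs from 8.77 to 624 CPM with no overlap between groups, Aldh1l1 is highest in DP and lowest in Oct4+, and Gldc and Phgdh overlap in every pair of groups.

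In DP against Pdgfra+, 2 of the 9 genes were called, both higher, where 3.89% of all 14185 genes were called (3.2% higher and 0.691% lower). In Oct4+ against DP, 4 rose and 1 fell, where 27.7% of all genes were called (14.6% higher and 13.1% lower). In Oct4+ against Pdgfra+, 3 rose and none fell, where 32% were called (17.3% higher and 14.7% lower). By adjusted p alone, 2, 7 and 7 members passed in the 3 comparisons, against 6.87%, 56.2% and 63.2% of all genes. With DP and Pdgfra+ paired by replicate number in a fit of those 6 libraries, 4 members rather than 2 had an adjusted p under 0.05, while the members past both thresholds were still Aldh1l1 and Bcat1. In that paired fit 713 of 12541 genes passed both thresholds, against 552 of 14185 in the main fit. The share of all genes by adjusted p alone was not taken for it. Libraries of the compared groups did not overlap for 4, 7 and 7 members, against 34.2%, 62.6% and 69.3% of all genes. The member median log2 fold change was 0.30, 1.11 and 1.11, and the median of all genes 0.02, 0.04 and 0.01. The 3 comparisons share libraries, so their values stand side by side and are not independent of each other. Of the 52 other genes in the pathway list, 45 were tested, and Sds, Mthfs, Ftcd, Mat1a, Bhmt, Sardh and Chdh were too low. Of these 45, 1 rose in DP against Pdgfra+, 9 rose and 2 fell in Oct4+ against DP, and 9 rose in Oct4+ against Pdgfra+. The largest rises among these against DP were those of Cth, Dmgdh, Cbs and Mthfd2l, and against Pdgfra+ those of Dmgdh, Bhmt2, Cth and Cbs. Cth and Cbs, the enzymes of transsulfuration (the route from homocysteine to cysteine), had log2 fold changes of 5.61 (SE 0.42, edgeR adjusted p 7.13e-06) and 3.44 (SE 0.65, 0.00132) against DP and of 5.28 and 4.12 against Pdgfra+. Dmgdh, which demethylates dimethylglycine, and Bhmt2, a homocysteine methyltransferase, rose by 7.54 (SE 1.31) and 6.74 (SE 1.36) against Pdgfra+, with Oct4+ levels of 29.5 ± 33.7 and 9.21 ± 11.5 CPM (SD, n = 3) that varied more between libraries than their mean. Sdsl, a serine dehydratase-like enzyme, was lower in Oct4+ than in DP (-1.84, SE 0.51, adjusted p 0.0117).

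**Figure D2:**
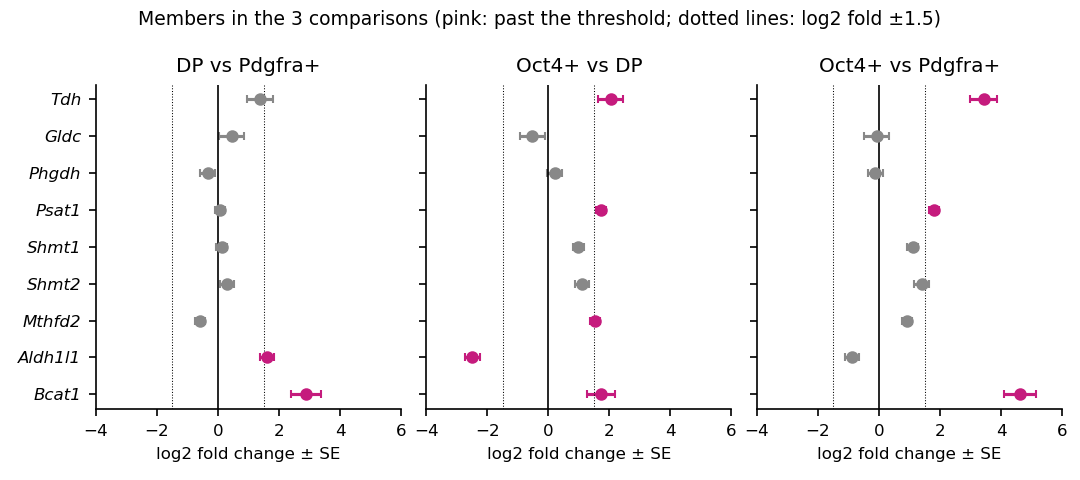
Log2 fold change of each of the 9 genes in the 3 comparisons of sorted groups. Points are edgeR estimates, bars are 1 standard error, pink points passed both the adjusted p and the fold minimum, and dotted lines mark that minimum of 1.5. Tdh, Psat1 and Bcat1 lie above the minimum in both comparisons of Oct4+, Aldh1l1 lies above it in DP against Pdgfra+ and below zero in Oct4+, and Gldc and Phgdh stay near zero.

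Per kilobase of annotated exon, which allows levels to be compared between genes, the order of the 9 differed between the groups. In Pdgfra+ cells Gldc (31.7 CPM per kilobase) and Phgdh (31.5) led, with Shmt2 at 23.7, Shmt1 at 22.3 and Tdh at 16.1, and Bcat1 was last at 2.31. In DP cells Gldc (43.4) and Tdh (42.0) had the highest means, Tdh leading in replicates 1 and 3 (28.7 and 40.1 against 28.2 and 28.2 for Gldc) and Gldc in replicate 2 (73.8 against 57.3), with Shmt2 (29.0), Aldh1l1 (28.3), Phgdh (25.2) and Shmt1 (24.4) close together and Mthfd2 last at 8.70. In Oct4+ cells Tdh led at 173 CPM per kilobase, ahead of Shmt2 (62.6), Bcat1 (56.4), Shmt1 (48.2) and Psat1 (40.5), and Aldh1l1 was last at 5.01. Exon length was the union of all annotated isoforms, so genes with unused exons are understated on this scale. Across the 9 libraries, Psat1 ran closest to Shmt1 (Pearson r = 0.962 on log2 CPM), Shmt2 (0.939) and Mthfd2 (0.906), Tdh to Shmt2 (0.931), and Aldh1l1 ran opposite to Mthfd2 (-0.904). These values are descriptions over 9 libraries that fall into 3 sorted groups. Over all genes tested, the pattern most like Tdh was that of Bnc2 (0.982), followed by Snx5 and Prelid3a (both 0.980), most like Bcat1 was Ooep (0.996), most like Psat1 was Mrpl39 (0.996) and most like Aldh1l1 was Dpp7 (0.984). The remaining closest genes were Usp51 for Shmt2 (0.993), Zfp750 for Mthfd2 (0.989), Abhd10 for Shmt1 (0.974), Nup205 for Gldc (0.931) and Ppp2cb for Phgdh (0.927). Many genes had an r over 0.95 with a member: 678 with Psat1, 245 with Shmt2, 182 with Tdh, 98 with Shmt1 and 75 with Bcat1. Mthfd2 had 60, Aldh1l1 27, and Gldc and Phgdh 0. The closest gene is thus 1 of many for most members.

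The single-cell libraries held 6896 barcodes without 4OHT and 7283 with it, of which 5430 and 6665 were used, with median depths of 17403.5 and 12480 unique molecular identifiers (UMIs) per cell. The 2 libraries shared 21 barcodes. With 1 library per condition no test was possible, and the intervals below are 95% Poisson or binomial intervals that cover counting error only. Pou5f1, the deleted gene, was at 40.2 CPM without 4OHT and 2.74 CPM with it. Reads came from the 3′ end, and whether this part is deleted is not given in the sources used here, so this value does not check the deletion by itself. Clusters were built without the pathway genes and named from markers. Without 4OHT, 3826 cells (70.5%) were epiblast-like, 1417 (26.1%) endoderm-like, 138 two-cell-like, 22 fibroblast-like and 27 unnamed. With 4OHT, 6409 cells (96.2%) were endoderm-like, 2 epiblast-like, 5 two-cell-like, 33 fibroblast-like and 216 unnamed. The doublet caller marked 166 cells without 4OHT and 0 of 6665 with it, so doublets in the second library must be taken as not removed.

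Over all cells, 5 of the 9 genes were more than 2-fold lower in the +4OHT library, where 34.7% of the 9084 genes at 10 CPM or more differed by that much (23.5% higher and 11.1% lower). Bcat1 was 39.2-fold lower (95% interval 35.1 to 43.9, 3.43 against 135 CPM) and Tdh 7.17-fold lower (6.95 to 7.41, 45.5 against 326 CPM). Of the 323 Bcat1 UMIs with 4OHT, 205 came from 215 cells of the unnamed cluster 3 and 102 from endoderm-like cells. These cluster 3 cells had Bcat1 at 51.1 CPM and Phgdh at 132 CPM, so Bcat1 was not low in every cell group with 4OHT. Shmt2 was 3.42-fold lower (3.27 to 3.59), Psat1 2.64-fold (2.54 to 2.73) and Mthfd2 2.45-fold (2.36 to 2.53). The member median log2 ratio was -1.29, beside 0.26 over all genes at that level, and of the whole 61-gene pathway list 2 of 44 such genes were higher and 14 lower. The share of epiblast-like cells differed between the libraries as given above, and the levels were therefore also taken by cell class.

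Within the -4OHT library, the epiblast-like cells had the high levels of Tdh, Psat1, Shmt2, Mthfd2 and Bcat1 and a low level of Aldh1l1. Against endoderm-like cells of the same library 6 of the 9 genes differed by more than 2-fold, 5 higher and 1 lower, where 31.1% of 8698 genes did (11.1% higher and 20% lower). Tdh was at 392 CPM in epiblast-like and 119 in endoderm-like cells, a ratio of 3.29 (3.16 to 3.43). Bcat1 was at 171 and 7.69 CPM, a ratio of 22.2 (19.1 to 26.1). Psat1 (138 and 38.9 CPM), Shmt2 (96.2 and 32.3) and Mthfd2 (143 and 45.4) had ratios of 3.56, 2.98 and 3.14. Aldh1l1 was 8.21-fold lower in epiblast-like cells (7.16 to 9.44, 3.98 against 32.7 CPM). Phgdh (152 and 82.5 CPM), Shmt1 (70.6 and 41.5) and Gldc (30.4 and 46.6) differed by less than 2-fold. The member median log2 ratio was 1.58, beside -0.06 over all genes, and of the 61-gene list 15 of 45 genes at 10 CPM or more were higher in epiblast-like cells, Amt, Cth and Bcat2 among them, and 5 lower, Folr1 among them. The 2 epiblast-like clusters were alike in Psat1 (139 and 138 CPM) and Mthfd2 (139 and 145), while cluster 1 had 445 CPM of Tdh, 43.7 of Gldc and 95.9 of Shmt1 against 359, 22.3 and 55.2 in cluster 2, and cluster 2 had more Bcat1 (186 against 146). The 138 two-cell-like cells, which carried the Zscan4 genes, had Tdh at 257, Mthfd2 at 136, Bcat1 at 185, Psat1 at 93.8, Shmt2 at 88.4 and Aldh1l1 at 4.00 CPM. Their cluster also expressed all 10 epiblast markers. Over both libraries and with doublets kept, these summed to 6033 CPM, against 6022 and 7128 in epiblast-like clusters 1 and 2.

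Within endoderm-like cells the +4OHT library was lower in Tdh and Aldh1l1. Of the 8 members at 10 CPM or more, these 2 differed by more than 2-fold, both lower, where 12.9% of 8685 genes did (8.99% higher and 3.93% lower). Tdh was at 46.6 CPM with 4OHT and 119 without it (2.55-fold lower, 2.43 to 2.68), and Aldh1l1 at 14.9 and 32.7 CPM (2.20-fold lower, 2.00 to 2.41). Bcat1 was at 1.15 and 7.69 CPM (6.71-fold lower, 5.22 to 8.67), under 10 CPM in both. Gldc (58.3 with 4OHT against 46.6), Psat1 (44.1 against 38.9) and Mthfd2 (49.9 against 45.4) were slightly higher with 4OHT, and Phgdh (66.1 against 82.5), Shmt1 (34.8 against 41.5) and Shmt2 (23.6 against 32.3) slightly lower.

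Different clusters made up the endoderm-like class in the 2 libraries. Cluster 4, led by the visceral endoderm genes Amn and Cubn, held 764 used cells without 4OHT and 24 with it, and clusters 0, 5, 9 and 10 held most endoderm-like cells with 4OHT. The following values were taken after this difference had been seen. In the -4OHT library, cluster 4 had 156 CPM of Tdh against 60.1 in clusters 0 and 5 (ratio 2.6, 2.35 to 2.89) and 45.8 CPM of Aldh1l1 against 10.9 (ratio 4.19, 3.32 to 5.35), while Psat1 was 2.29-fold lower (1.99 to 2.63, 27.3 against 62.4 CPM). These 3 of the 8 members at 10 CPM or more, 2 higher and 1 lower, differed by more than 2-fold, where 18% of 8503 genes did (6.56% higher and 11.4% lower). Pou5f1 was at 20.6 CPM in cluster 4 and 3.10 in clusters 0 and 5, Zfp42 at 88.4 and 34.2 and Folr1 at 418 and 81.4. Before doublets were removed and over both libraries, cluster 4 had 6.63% predicted doublets against 0.0459% in cluster 0 and 0 in cluster 5. Its 10 epiblast markers summed to 3522 CPM against 767 and 686, and 2 of them reached both 20 CPM and 25% of the highest cluster's level. With finer clusters (resolution 1.0), an Amn and Cubn cluster of 565 cells had 0% predicted doublets and a sum of 3523 CPM. Another, of 239 cells, had 23.4% and 3432 CPM. The part of doublets and epiblast RNA in the Tdh level of cluster 4 was not tested. Bcat1 was at 8.05 and 7.15 CPM, a ratio of 1.13 (0.80 to 1.59). Against cluster 4, epiblast-like cells differed by more than 2-fold in 7 members, with 6 higher (Bcat1 by 21.2, Psat1 5.08, Mthfd2 3.39, Shmt2 2.59, Tdh 2.51 and Phgdh 2.26) and Aldh1l1 11.5-fold lower, where 31.2% of 8552 genes did (13% higher and 18.2% lower).

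Within clusters 0 and 5, none of the 8 members at 10 CPM or more differed by 2-fold between the libraries, where 1.98% of 8454 genes did (1.21% higher and 0.769% lower). Tdh was at 51.6 CPM with 4OHT and 60.1 without, Aldh1l1 at 15.2 and 10.9, Psat1 at 52.1 and 62.4, Mthfd2 at 52.2 and 52.1 and Shmt2 at 26.0 and 24.8. Phgdh stood at 77.9 against 113, Shmt1 at 40.9 against 52.2 and Gldc at 52.4 against 41.8 CPM. Bcat1, under 10 CPM in both, was 7.46-fold lower with 4OHT (5.07 to 10.9, 62 against 53 UMIs). The epiblast genes Nanog and Tdgf1, which stood 32.5 and 32.6 times higher in epiblast-like than in endoderm-like cells, were at 5.40 and 8.77 CPM in these clusters without 4OHT and at 0.108 and 0.139 CPM with it. The 22 fibroblast-like cells without 4OHT held Nanog at 18.7, Tdgf1 at 44.1 and Tdh at 66.1 CPM. The 33 with it held both epiblast genes at 0 and Tdh at 16.3 CPM. Over both libraries and with doublets kept, all 10 epiblast markers summed to 891 CPM in cluster 10, 767 in cluster 0 and 686 in cluster 5. Most cells of these clusters came from the +4OHT library (978 of 997, 1930 of 2177 and 2329 of 2663). Nanog and Tdgf1 are 2 of the 10 markers, and the others are not compared between the libraries here, so these 2 do not stand for the list. The part of epiblast RNA in the levels of Bcat1 and Tdh in endoderm-like cells was not tested. Among the clusters found mainly with 4OHT, cluster 9 (led by Clu and Anxa1) had the lowest Tdh, 9.22 CPM, with Gldc at 94.5 CPM, and cluster 10 (led by Gkn2 and Tff1) had Tdh at 71.5 and Phgdh at 19.4 CPM.

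**Figure D3:**
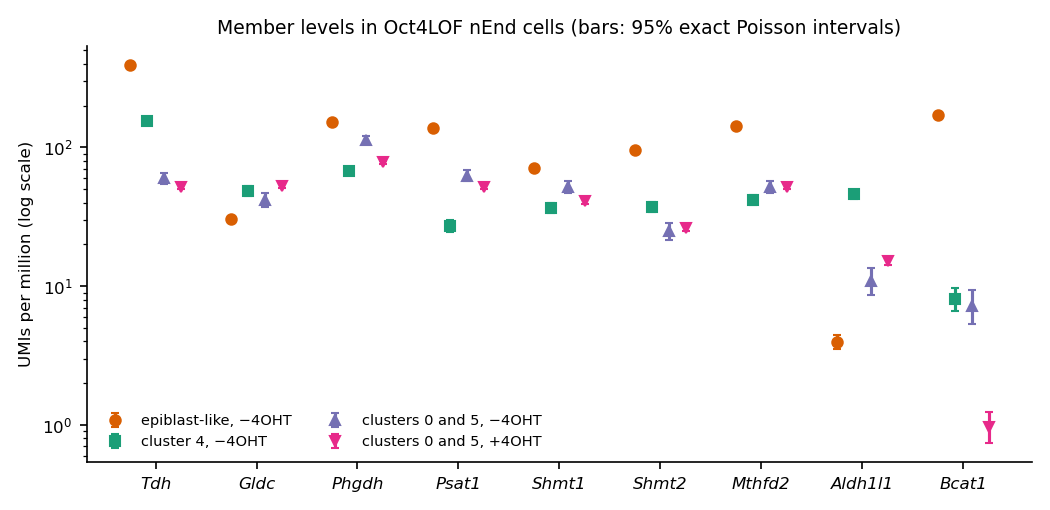
Level of each of the 9 genes in epiblast-like cells, cluster 4 and clusters 0 and 5 of the -4OHT library and in clusters 0 and 5 of the +4OHT library. Points are CPM of summed UMIs on a logarithmic axis, and bars are 95% exact Poisson intervals that cover counting error only. Tdh and Bcat1 are highest in epiblast-like cells (392 and 171 CPM), and Aldh1l1 is highest in cluster 4 (45.8 CPM). Clusters 0 and 5 of the 2 libraries differ by less than 2-fold (Phgdh 113 and 77.9 CPM without and with 4OHT), except for Bcat1 (7.15 and 0.959 CPM).

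Set side by side, Tdh, Psat1, Shmt1, Shmt2, Mthfd2 and Bcat1 had higher mean values in Oct4+ than in DP and Pdgfra+ bulk libraries. These genes were also higher in epiblast-like than in endoderm-like single cells, Shmt1 by less than 2-fold. Aldh1l1 was lower in both assays. Gldc was lower in epiblast-like cells by less than 2-fold. In bulk its groups overlapped and the sign of its difference moved with the setting, so no direction is given for it there. Phgdh differed between the assays. It was higher in epiblast-like than in endoderm-like cells (ratio 1.84), while its bulk mean in Oct4+ (72.5 CPM) lay between DP (62.6) and Pdgfra+ (78.4). The bulk differences of Shmt1, Shmt2, Gldc and Phgdh passed the threshold in neither comparison. Those of Mthfd2 and Aldh1l1 passed it against DP but not against Pdgfra+. DP bulk libraries and cluster 4 cells, each compared with the endoderm population that had less Pou5f1, were both higher in Tdh by value (2.61-fold and 2.6-fold) and in Aldh1l1 (3.08-fold and 4.19-fold). For Bcat1 the ratio was 7.44 in bulk DP against Pdgfra+ and 1.13 in cluster 4 against clusters 0 and 5, where it was under 10 CPM on both sides. Psat1 was lower in cluster 4 and was not called in DP (log2 fold change 0.08). The lines, the sort and the counting method differed between the assays, and no test across them was made.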

How the data were processed

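Bulk RNA-seq gave 9 libraries (NEBNext Ultra II Directional, single-end) and 10x Genomics 3′ single-cell RNA-seq gave 2. The authors deposited a table of raw counts per gene for the bulk libraries, in which 35 lines without a gene name were dropped, while no source used here gives its aligner, counter or strand setting. The authors also deposited UMI count matrices made by Cell Ranger (6.1.2 in the matrix header) on mm10. The members and lists were chosen with earlier results of these data known.

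Bulk counts were tested with edgeR 4.0.16 (quasi-likelihood test, TMM, filterByExpr by group), with all 9 libraries in 1 fit on group. It was tested on simulated data. All 9 members are named throughout, other genes of a 61-gene pathway list only as direct partners or among the 4 largest calls per direction. Replicate numbers paired DP with Pdgfra+ in the data (correlation of same-numbered deviations 0.271, 0.477 and 0.321) but not Oct4+ with DP (0.0222, -0.0728 and 0.152) or with Pdgfra+ (0.0383, -0.00412 and -0.0465), so a block is given as an alternative.

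Cells with at least 1000 genes and under 15% mitochondrial UMIs were kept, predicted doublets (Scrublet in scanpy 1.11.5) were removed, and Leiden clusters (resolution 0.5) were made without pathway and mitochondrial genes. A class needed 3 detected markers. The rule that a class takes the markers leading the cluster's top genes, which separated the two-cell-like cells, was changed after member values had been seen. UMI counts were summed per class as CPM, and members past 2-fold were counted among genes at 10 CPM or more in at least 1 group. Ratios of Bcat1 with both groups under 10 CPM are printed and not counted.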

Additional observations from a re-analysis of the deposited data

How the results depend on the processing

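Members called in the comparisons of sorted groups kept their direction in each of the 16 other settings tried. Leaving out each library in turn gave 1 to 2 members called in DP against Pdgfra+. In Oct4+ against Pdgfra+, 5 members passed with a log2 fold minimum of 1 and 7 with no fold minimum, against 3. Of all 14185 genes, 6147 and 8970 passed in these settings, against 4535. For differences near zero the sign moved: Gldc against Pdgfra+ in Oct4+ gave 0.00378 with RLE size factors, 0.0659 with at least 1 CPM in all 9 libraries and 0.00332 with DESeq2. The 1 CPM filter turned Phgdh (0.0258), Dld (0.0203) and Psph (0.0240) in the same comparison and Gcat (0.0249) in Oct4+ against DP. Gcat also turned with the replicate block on all 9 libraries (0.00280), and Mthfd1l with no filter (-0.00809).

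Over left-out libraries, log2 fold changes that changed sign in DP against Pdgfra+ ran from -0.17 to 0.69 (Gldc), -0.00928 to 0.25 (Psat1), -0.00241 to 0.38 (Shmt1), -0.0119 to 0.25 (Mthfd1l), -0.70 to 0.15 (Mthfd2l) and -0.0169 to 0.24 (Bcat2). In Oct4+ against DP they ran from -0.90 to 0.0724 (Gldc), -0.0681 to 0.36 (Phgdh), -0.41 to 0.24 (Gcat), -0.0847 to 0.18 (Mthfd1l) and -0.85 to 0.14 (Aldh1l2). In Oct4+ against Pdgfra+ they ran from -0.44 to 0.16 (Gldc), -0.39 to 0.0318 (Phgdh), -0.00414 to 0.35 (Gcsh) and -0.22 to 0.015 (Psph). The cause was not tested.

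A replicate block fitted to the 6 libraries of a comparison put Mthfd2 in Oct4+ against DP under the fold minimum (1.4997) and ended the call of Dmgdh there (3.07), and the block changed no other member's call. Over all genes, 552 were called in DP against Pdgfra+, against 975 with no fold minimum, 1023 with no low-count filter, 200 at 1 CPM in all libraries, 860 by DESeq2 and 57 to 728 over left-out libraries. In Oct4+ against DP 3933 were called, against 7968 with no fold minimum and 1769 at 1 CPM in all libraries, and in Oct4+ against Pdgfra+ 4535, 8970 and 2096. In single cells, 108 member ratios stayed within their interval and 36 moved, and the counts of members past 2-fold went from 5 to 6 over all cells (mean over cells, cells thinned to 5000 UMIs) and from 2 to 3 in endoderm-like cells with doublets kept, and did not change otherwise, including in the alternatives chosen after seeing the data (shared barcodes left out, two-cell-like cells counted as epiblast-like). The share over all genes was not taken in these single-cell settings, so the member counts there have no background beside them. Depth limits Bcat1 in endoderm-like cells, and 1 library per condition limits every 4OHT comparison.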
